A study of Mus musculus with 14 samples.

Results

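The miR-199 and miR-214 names of the deposited miRNA table were described across 14 mouse tissues. Of the 1046 names in the table, 4 fell under the rule, namely mmu-miR-199a-3p, mmu-miR-199a-5p, mmu-miR-199b and mmu-miR-214, star names left out. The species prefix mmu, for mouse, is dropped from here on. A further row, miR-2145, shares the leading letters only and is a different miRNA. It had 16 reads in all and was set aside. The libraries came from oesophagus, lung, stomach, spleen, small intestine, kidney, uterus, heart, colon, ovary, liver, pancreas, brain and cerebellum of mice of the inbred strain C57BL/6J. The labels name no further allele and no treatment. Each tissue had 1 library of pooled total RNA, extracted with Trizol, and the labels give 5 mice for the harvest but 10 mice for the pool. The labels do not state the ages of the mice.

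miR-199 and miR-214 are known from mesenchymal cells such as fibroblasts and smooth muscle cells. A miRNA is cut from a hairpin transcript, and either arm of the hairpin, named 5p or 3p, can guide silencing of messenger RNAs that pair with its seed, bases 2 to 8 of the miRNA. In vertebrates the hairpins of these miRNAs lie inside dynamin genes, on the strand opposite to the dynamin transcript, and those of miR-199a-2 and miR-214 are made from a shared long noncoding RNA, Dnm3os. miR-214 and the miR-199a arms have been studied in skeletal development, in heart muscle and in tissue fibrosis.

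The sequences show which of these names the reads could tell apart, and they are given from RefSeq on GRCm38.p6, 5′ to 3′ with the seed in capitals. All 4 names were matched, with miR-199b read as the 3p arm, the one mature arm that RefSeq lists for its hairpin, and miR-214 as miR-214-3p, because the table names no arm for either.

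miR-199a-5p: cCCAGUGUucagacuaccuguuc
miR-199a-3p: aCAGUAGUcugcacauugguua
miR-199b-3p: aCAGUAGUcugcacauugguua
miR-214-3p: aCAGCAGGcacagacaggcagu

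miR-199a-3p and miR-199b-3p have the same 22 bases, so no read of that sequence can be assigned to either gene. RefSeq holds this sequence in 3 hairpins, 2 of miR-199a and 1 of miR-199b. The seed of miR-214-3p is shared in RefSeq with miR-761, which had 0 reads in the table. The other arm of the miR-199b hairpin, which the table lists as a star name, differs from miR-199a-5p. The stretch of the miR-199b hairpin that matches miR-199a-5p differs from it by 1 substitution, C10U, counted from 1 at the 5′ end with the miR-199a-5p base first and marked here in capitals.

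miR-199a-5p: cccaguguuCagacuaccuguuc
miR-199b hairpin: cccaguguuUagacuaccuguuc

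The Mir199a-2 hairpin lies at chr1:162217814-162217923 on the plus strand and the Mir214 hairpin at chr1:162223368-162223477 on the same strand, with 5444 bases between them. Both lie within Dnm3, which GENCODE M21 places on the minus strand, outside its annotated exons, and both overlap exons of Dnm3os on the plus strand. The 2 hairpins are shown whole to place their arms, whose reads are described below, and the mature arms are in capitals.

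Mir199a-2: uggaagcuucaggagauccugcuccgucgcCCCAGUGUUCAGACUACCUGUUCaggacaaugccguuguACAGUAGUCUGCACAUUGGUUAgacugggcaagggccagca
Mir214: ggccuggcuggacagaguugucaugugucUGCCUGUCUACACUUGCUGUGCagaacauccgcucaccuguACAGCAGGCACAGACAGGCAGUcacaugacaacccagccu

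Mir199a-1 lies at chr9:21496495-21496564 on the minus strand within Dnm2, and Mir199b at chr2:32318460-32318569 on the plus strand within Dnm1. Both are antisense to the dynamin gene and outside its annotated exons. Coordinates are those of RefSeq, since the sources used here name no build for the counts.

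Library totals lay between 622132 counts (pancreas) and 9341000 (small intestine), and values are reads per 1000000 miRNA reads of the library (RPM) with exact Poisson intervals at 95% confidence. These intervals cover counting error only, since each tissue is 1 library and reads carry no molecular identifiers. Where no read was counted, a floor of 3 reads was used, or 2.64 RPM in cerebellum, where the exact upper limit was 3.25 RPM. miR-143, a smooth muscle miRNA, made up 98.7% of the colon-labelled library and 87.1% of the ovary library, which leaves 86545 and 292350 other reads there. The intestinal names miR-192, miR-194 and miR-215 summed to 78772 RPM in the library labelled uterus and 25.2 RPM in that labelled colon, or 182504 and 1941 per 1000000 reads other than miR-143, against 458769 in small intestine, 1841 in spleen and 833 in brain on that scale. Both libraries are named by their labels. Levels in bulk tissue do not tell fewer cells of a type from less RNA per cell.

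With these totals, the 4 names together were most abundant in oesophagus, lung and stomach and least abundant in brain and cerebellum. They held 0.225% of the oesophagus reads and 0.00123% of the cerebellum reads. In all 14 libraries together they had 52975 reads, of which 30017 were miR-199a-3p, 15195 miR-199b, 6229 miR-199a-5p and 1534 miR-214.

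The counts of miR-199b followed those of miR-199a-3p at a fixed proportion. miR-199b had 33.1% of the reads of both names in brain, the lowest share, and 33.7% in spleen, the highest. Over all libraries its share was 33.6%, near 33.3%, the proportion of the 3 hairpins with this sequence that is named miR-199b. The 95% exact Clopper-Pearson interval was 33.2–34.0%, and the intervals of 14 of 14 libraries held 33.3%. Such intervals take the reads of the 2 names as independent draws, which reads of a single sequence are not. They therefore measure no sampling error of this share. In brain the interval was 25.4–41.6%, although the share was 33.1%. The ratio of the 2 names varied by 1.03-fold between the lowest and highest of the 12 libraries with at least 10 reads of each. The sources used here do not say how the authors counted reads that match several hairpins. If a read was counted once for each hairpin, the sum of the 2 names holds the same reads more than once. The same would hold for miR-199a-5p, which has 2 hairpins. Levels would then be too high and the intervals given below too narrow.

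The star name from the same hairpin behaved otherwise. miR-199b* had 30.0% (27.3–32.9%) of the reads of miR-199b* and miR-199a-5p in lung and 27.9% (19.5–37.5%) in brain. In spleen it had 7.30% (5.90–8.90%), in kidney 8.37% (6.14–11.1%) and in liver 3.28% (0.900–8.18%), from 4 reads. Its ratio to miR-199a-5p varied by 5.45-fold over the 10 libraries with at least 10 reads of each. The 3p names therefore gave the same split in every tissue, whereas the 5p names, whose sequences differ, gave different splits. For the rest of the text miR-199a-3p and miR-199b are summed as miR-199-3p, and their separate levels are not read as levels of different genes.

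**Figure D1:**
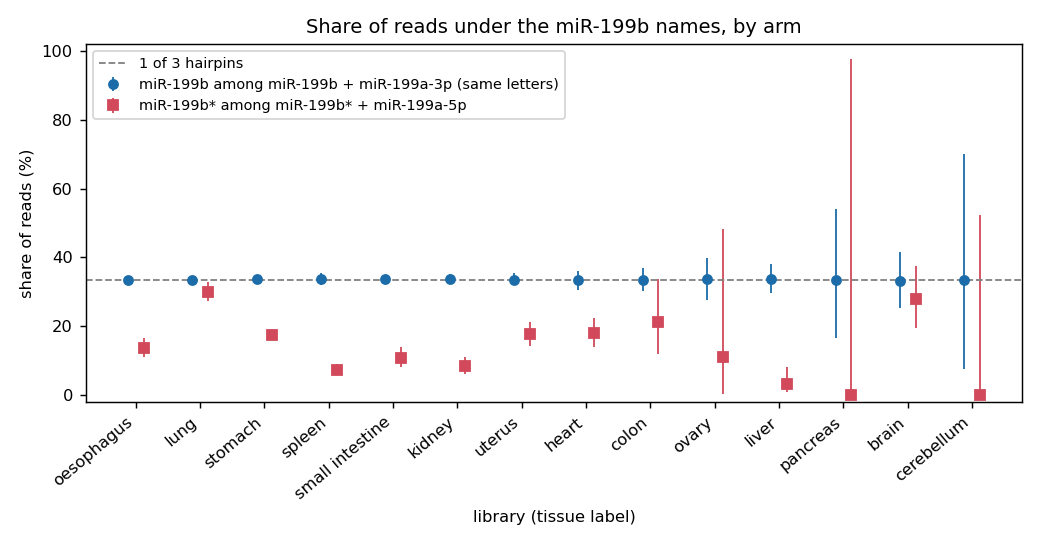
Share of reads (%) under the miR-199b names in each of 14 libraries, for the 3p names (circles) and the 5p names (squares), with 95% exact binomial intervals and a dashed line at 33.3%. The circles lie on the line in every library, while the squares range between 3.28% in liver and 30.0% in lung among libraries with any miR-199b* reads.

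No member had counts equal to those of another name in all 14 libraries. Of the 805 names with at least 1 read, 87 had such a twin row, and 2 of these had more than 10 reads in all.

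miR-199-3p reached 2065 RPM (2026–2104) in oesophagus, 1446 RPM (1415–1477) in lung, 1001 RPM (979.9–1023) in stomach and 623 RPM (601–645) in spleen. It stood at 499 RPM in small intestine, 422 in kidney, 331 in the library labelled uterus and 167 in heart. Lowest were the library labelled colon with 116 RPM, ovary 108, liver 81.8, pancreas 43.4, brain 26.1 and cerebellum 7.93 RPM (3.63–15.1). Oesophagus was 1.43-fold (1.39–1.47) above lung, 79.0-fold (66.8–94.0) above brain and 260.3-fold (137–569) above cerebellum, where 9 reads were counted. Of the 13 steps between neighbouring libraries in this order, 12 lay beyond counting error, if each count is a separate read. The exception was the step between the libraries labelled colon and ovary (1.08-fold, 0.933–1.25). The order at the top turned with the total. Per 1000000 reads other than miR-143, miR-199-3p was at 8955 in the library labelled colon, 3719 in lung, 3363 in stomach and 2678 in oesophagus, so that oesophagus stood 0.720-fold (0.700–0.741) against lung, while it remained 96.0-fold (81.2–114) above brain.

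The 5p arm did not have its highest value in oesophagus. miR-199a-5p reached 233 RPM (219.6–247) in spleen and 228 RPM (218–238) in stomach, which did not differ beyond counting error (1.02-fold, 0.949–1.10) with these totals. On reads other than miR-143, spleen had 483 and stomach 766, a spleen-over-stomach ratio of 0.631 (0.586–0.679), and stomach came first under all 3 other scalings. With totals it stood at 125 RPM in lung and 109.9 RPM in oesophagus, and spleen was 2.12-fold (1.92–2.35) above oesophagus. Kidney had 52.2 RPM, small intestine 47.6, the library labelled uterus 46.1 and heart 38.9 RPM. Liver had 18.6 RPM, brain 14.1 and the library labelled colon 7.19 RPM. Cerebellum, ovary and pancreas had 5, 8 and 1 reads, or 4.41, 3.53 and 1.61 RPM. Of the 13 steps in the order, 7 did not exceed counting error, among them all 3 steps below the library labelled colon.

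miR-214, from the same primary transcript as miR-199a-2, was scarce. It reached 71.0 RPM (64.0–78.6) in oesophagus, 2.70-fold (2.29–3.18) above small intestine, and no library held 100 RPM with these totals. On reads other than miR-143 it was at 92.1 in oesophagus and 56.8 in small intestine, but at 106 in ovary and 381 in the library labelled colon, so oesophagus was no longer first, as under the 2 other scalings. With totals, small intestine had 26.3 RPM, the library labelled uterus 24.8, lung 24.8 and stomach 23.7, and none of the steps among these differed beyond counting error. Spleen had 17.7 RPM, kidney 14.1 and ovary 13.7, again without a step beyond counting error. Heart had 7.35 RPM, the library labelled colon 4.95, pancreas 3.21 (2 reads) and liver 2.84. Brain had 1 read among 5316969 (0.188 RPM, 0.00476–1.05). Cerebellum had 0, and oesophagus was 26.9-fold above a floor of 3 reads in that library. The star arm, miR-214*, had 65 reads in all libraries together and at most 1.42 RPM, in stomach.

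**Figure D2:**
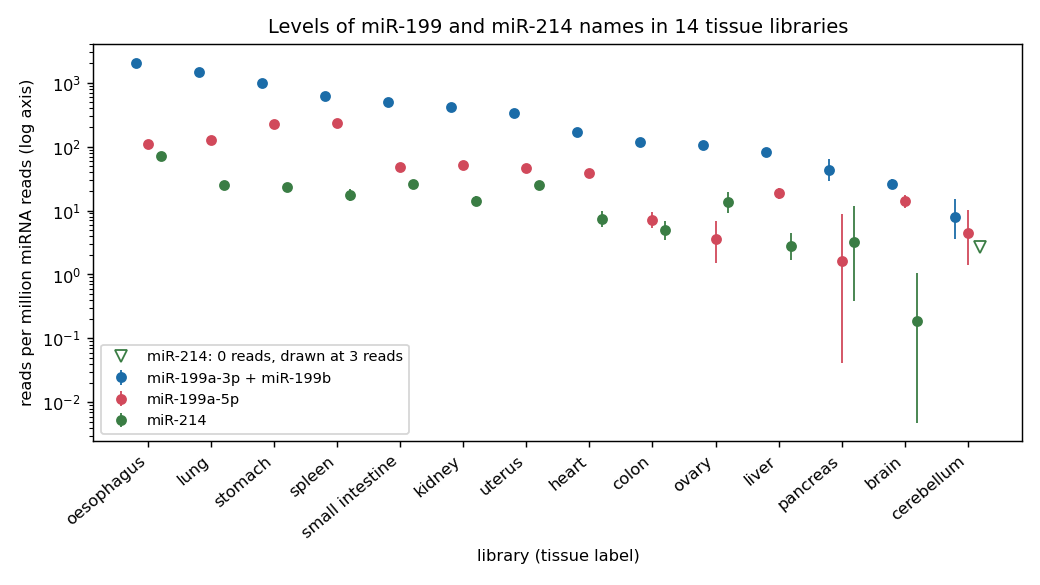
Level of miR-199-3p, miR-199a-5p and miR-214 in each library, in reads per 1000000 miRNA reads on a log axis, with 95% exact Poisson intervals and libraries ordered by miR-199-3p. miR-199-3p falls in that order between 2065 RPM in oesophagus and 7.93 RPM in cerebellum, while miR-199a-5p peaks in spleen and stomach and miR-214 in oesophagus. The open triangle marks 0 reads, drawn at 3 reads.

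A name was called high in a tissue where its level was at least 4-fold above the median of the other 13 libraries, with 1 RPM added to both. In oesophagus 3 of the 4 names were called, against 28.5% of the 418 names that reached 10 RPM in at least 1 library. In stomach 3 of 4 were called, against 12.2%, in lung 2 of 4, against 17.9%, and in spleen 1 of 4, against 13.2%. Since miR-199a-3p and miR-199b share their reads, they count there as a single measurement. miR-199-3p stood 12.3-fold above the median in oesophagus, 8.62-fold in lung and 5.97-fold in stomach. miR-199a-5p stood 5.86-fold above it in spleen and 5.74-fold in stomach, and miR-214 4.91-fold in oesophagus. These calls depended on the scaling, except that of miR-199a-5p in stomach. It held under all 3 other scalings (10.2-fold with totals without miR-143, 6.16-fold without the 5 most abundant names). With median-of-ratios factors it lay only just above the 4-fold limit. With totals without miR-143, oesophagus stood 1.80 (log2, where 2 is 4-fold) above the median for miR-199-3p and 1.30 for miR-214, and with median-of-ratios factors 1.24 and 1.35, so neither was called there. The lung and stomach calls of miR-199-3p held with totals without miR-143, but not with median-of-ratios factors or totals without the 5 most abundant names. Under all 3 of these scalings the library labelled colon was called for miR-199-3p (11.6-fold with totals without miR-143) and for miR-214 (10.1-fold), and ovary was called for miR-214 with median-of-ratios factors (10.5-fold) and once the 5 most abundant names were left out of the totals (5.15-fold). For miR-199a-5p the library labelled colon was called with totals without miR-143 (7.40-fold) and without the 5 most abundant names (4.66-fold), and lung with totals without miR-143 (4.30-fold). The spleen call of miR-199a-5p held with totals without miR-143 (2.69) but not with median-of-ratios factors (1.62). The share of all names called in a library was taken with totals only, so calls under other scalings cannot be set against it. Over all 14 libraries, 939 name and tissue pairs were called with totals and 656 with median-of-ratios factors. With totals without miR-143 there were 1019 such pairs, and 1207 without the 5 most abundant names. In brain, where 55% of all names were called, none of the 4 was, and likewise in cerebellum, where 46.9% were. Nor, with totals, was any member called in kidney (19.9% of all names), small intestine (9.57%), the library labelled uterus (8.13%), heart (4.55%), liver (4.55%), pancreas (3.59%), ovary (0.478%) or the library labelled colon (0.239%). By the stricter rule for tissue-enriched names (100 RPM and 5-fold above the second tissue), which called 10.5% of names, no member was called.

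The specificity index tau runs from 0 for even levels to 1 for reads in a single tissue and was taken on log2(RPM + 1). It was 0.325 for miR-199-3p, 0.403 for miR-199a-5p and 0.493 for miR-214, against a median of 0.640 over the 418 names and of 0.479 over those that reached 100 RPM. Both miR-199 arms were therefore spread more evenly over the tissues than the median name on this scale, with 10 or more RPM in 13 libraries for miR-199-3p, 10 for miR-199a-5p and 8 for miR-214.

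Ratios between names of the same library do not depend on the scaling. Their size does depend on how reads that match several hairpins were counted, which is not known. miR-199-3p covers 3 hairpins, miR-199a-5p 2 and miR-214 1. miR-199-3p exceeded miR-199a-5p in all 14 libraries, but to very different extents. In cerebellum this rested on 9 against 5 reads and did not exceed counting error (1.80, 0.542–6.84). The ratio was 18.8 (17.3–20.5) in oesophagus, 16.1 (12.1–22.1) in the library labelled colon, 11.5 (10.7–12.5) in lung and 10.5 (9.51–11.6) in small intestine. It was 8.09 (7.35–8.91) in kidney, 7.19 in the library labelled uterus, 4.40 (3.59–5.42) in liver, 4.39 (4.18–4.62) in stomach and 4.29 (3.75–4.91) in heart. Spleen at 2.67 (2.50–2.86) and brain at 1.85 (1.39–2.49) were lowest. Adding the miR-199b* reads to the 5p arm left oesophagus highest (16.2) and brain lowest (1.34). It placed lung at 8.08 (7.58–8.62), below small intestine at 9.34 (8.52–10.3). With miR-199a-3p alone over miR-199a-5p, brain stood at 1.24 (0.905–1.70), within counting error of 1. Ovary, pancreas and cerebellum had fewer than 10 reads of miR-199a-5p and were left out of this order.

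Such variation in the arms was common in the table. For the deposited names miR-199a-3p and miR-199a-5p alone, the highest ratio was 10.1-fold the lowest. Among 46 arm pairs with at least 10 reads of both arms in at least 10 libraries, the median of this range was 9.32-fold, and 24 pairs had a narrower range than miR-199a. The spread of the miR-199a arm ratio was thus near the middle of the arm pairs measured here.

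miR-214 was also set against its neighbour in the same transcript. miR-214 had 0.688 (0.428–1.09) reads per miR-199a-5p read in the library labelled colon, 0.646 (0.566–0.738) in oesophagus, 0.553 (0.471–0.647) in small intestine and 0.539 (0.454–0.637) in the library labelled uterus. The ratio was 0.270 in kidney, 0.198 in lung, 0.189 in heart and 0.153 in liver. Stomach at 0.104 (0.0894–0.120) and spleen at 0.0760 (0.0603–0.0947) were lowest. Of these 10 libraries, 4 lay above 0.5 and the others below 0.3. In ovary miR-214 had 31 reads and miR-199a-5p 8, and in brain miR-214 had 1 read and miR-199a-5p 75. miR-199a-5p can also come from Mir199a-1, so this is not a ratio within 1 transcript.

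**Figure D3:**
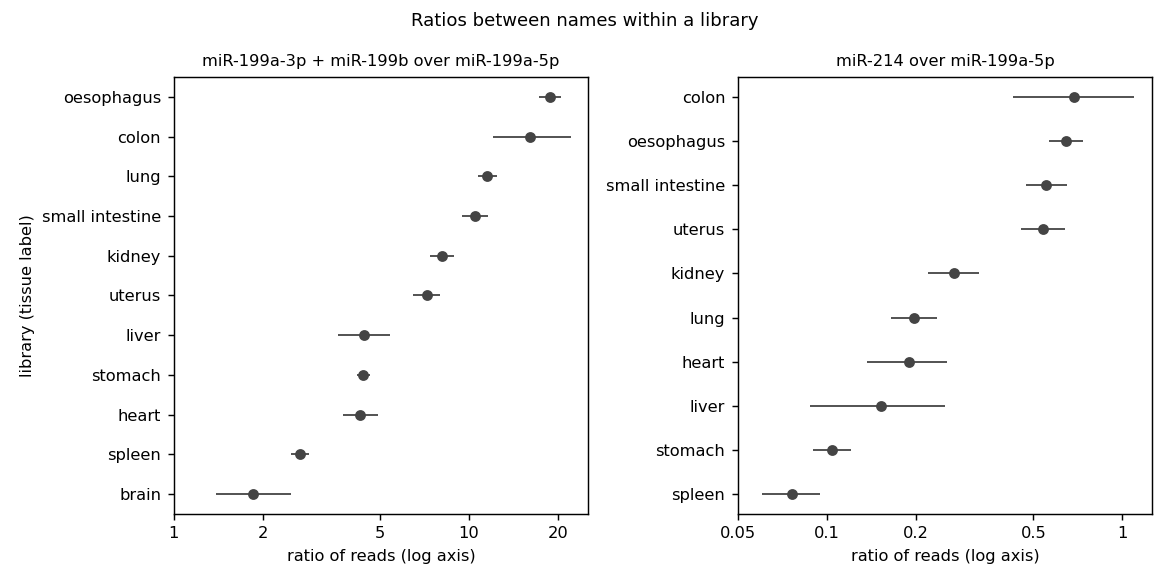
Ratio of miR-199-3p to miR-199a-5p (left) and of miR-214 to miR-199a-5p (right) within each library with at least 10 reads of both, on log axes with 95% exact conditional binomial intervals. Oesophagus is among the highest in both panels (18.8 and 0.646), and spleen is low in both (2.67 and 0.0760).

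The level in the library labelled colon depended on the total used for scaling. Per 1000000 reads other than miR-143, the 4 names summed to 9891 in the library labelled colon, 4209 in stomach, 4105 in lung, 2912 in oesophagus and 1812 in spleen. With totals that include miR-143, the library labelled colon had 128 RPM and ovary 125 RPM. Within the colon-labelled library miR-199a-3p stood at rank 17 of 283 names with reads, against rank 34 of 569 in oesophagus and 43 of 551 in lung. These ranks run over unequal numbers of names and alone do not show a higher level in the library labelled colon. That library had 86545 reads other than miR-143. In brain it stood at rank 277 of 670 and in cerebellum at rank 313 of 508. Brain, cerebellum, pancreas and liver were the lowest 4 libraries with either total.

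**Figure D4:**
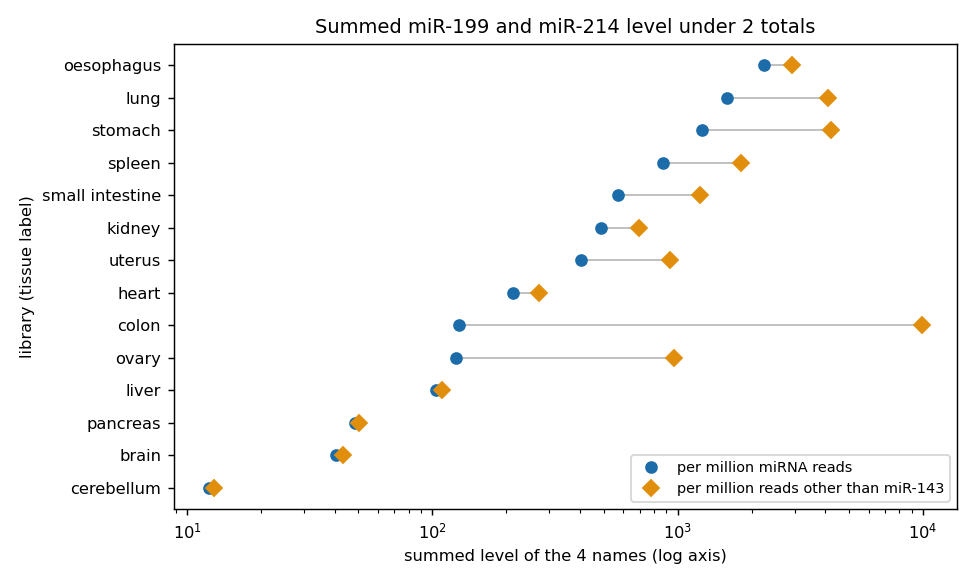
Summed level of the 4 names in each library per 1000000 miRNA reads (circles) and per 1000000 reads other than miR-143 (diamonds), on a log axis. The library labelled colon moves between 128 and 9891, the widest shift of the 14, while brain and cerebellum stay lowest with either total.

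Other miRNAs known from mesenchymal cells were taken as a list of 10 names. In oesophagus 5 of the 10 were called high, against 28.5% of all names, with a median log2 value over the other libraries of 1.99, against 1.03 for all names. These were miR-145 (716 RPM), which is made from the same locus as miR-143 in smooth muscle, and miR-10b (2993 RPM), miR-100 (1365 RPM), miR-152 (2969 RPM) and miR-22 (1686 RPM). Of the rest, miR-143 (log2 −1.18) and miR-218 (−0.40) lay below the median of the other libraries in oesophagus. miR-452-5p (1.85), miR-224 (1.15) and miR-452-3p (0.47, from 2 reads) lay above it but were not called. In stomach 2 of 10 were called, against 12.2% of all names, namely miR-145 (1402 RPM) and miR-10b (725 RPM), with a median of 0.99 against 0.30 for all names. In lung 2 of 10 were called, near the 17.9% of all names, with a median of 1.08 against 0.72. They were miR-218 (22.4 RPM) and miR-452-5p (10.9 RPM). Kidney had 4 of 10, against 19.9% of all names, and a median of 1.40 against 0.93, although no miR-199 or miR-214 name was called there. The names called in kidney were miR-10b (9659 RPM), miR-22 (2237 RPM), miR-218 (56.7 RPM) and miR-452-5p (11.8 RPM). Neither miR-143 nor miR-145 was called in lung or kidney. All list calls and medians here were taken with totals only. With totals, the list without miR-143 summed to 9750 RPM in oesophagus, 14731 in kidney, 4499.6 in stomach and 210.9 in the library labelled colon. On reads other than miR-143 these sums were 12645, 20913, 15114 and 16257. Oesophagus lay above stomach and the library labelled colon with totals, but below both on the other scale.

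The list did not follow the members in every tissue. miR-218, which is also made by motor neurons, was highest in brain at 602 RPM, where miR-199-3p had 26.1 RPM, and miR-152 was highest in pancreas at 8783 RPM. Across the 14 libraries the summed list without miR-143 and the summed members had a Spearman rho of 0.385 with totals, and 0.662 on reads other than miR-143. These values describe 14 libraries whose depth and miR-143 share enter both sums.

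Markers of other cell types stood high in the same libraries. The 5 striated muscle names summed to 322338 RPM in oesophagus and 320063 RPM in heart. Most of this was miR-1 (279486 and 318375 RPM), with miR-206 at 42616 RPM in oesophagus and 25.95 in heart. The other names were lower in oesophagus than in heart. miR-133a had 235.5 against 1529.6 RPM, miR-208a-3p 0.190 against 30.42, and miR-499 0 against 101.9. The similar sums therefore do not show equal muscle content. The 4 miR-199 and miR-214 names were 10.5-fold (9.98–11.1) higher in oesophagus than in heart. The 2 endothelial names, both arms of miR-126, were highest in lung at 31251 RPM, and 2 of 2 were called there, against 17.9% of all names. The 5 blood cell names summed to 14293 RPM in spleen, where 5 of 5 were called, against 13.2% of all names. In stomach they summed to 243 RPM and none was called, against 12.2% of all names. miR-199a-5p had 233 RPM in spleen and 228 RPM in stomach with totals, and 483 and 766 on reads other than miR-143. The 5 epithelial names of the miR-200 family summed to 6133 RPM in oesophagus. All 5 were called there (28.5% of all names), in lung (17.9%) and in stomach (12.2%). All 5 were also called in small intestine (9.57%), kidney (19.9%) and the library labelled uterus (8.13%). The part of these cell types in the levels of the members was not tested.

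By Spearman's rho over the 14 libraries, among names that reached 100 RPM in at least 1 library, those most like miR-199a-3p after miR-199b were miR-199a-5p (0.877), miR-145* (0.820), miR-27a (0.820) and miR-17 (0.793). For miR-199a-5p they were miR-27a (0.890), miR-15b (0.886), the 2 names of miR-199-3p (0.877 each) and miR-25 (0.873). For miR-214 they were the 2 names of miR-199-3p (0.899 each), miR-145* (0.820), miR-200c (0.815) and miR-143* (0.776). miR-214 and miR-199a-5p had a rho of 0.697. All points share their library's depth, and these values carry no test. The choice depended on the scaling, since with totals without miR-143 only 2 of the 5 names for miR-199a-3p and 3 of the 5 for miR-214 were shared.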

How the data were processed

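The deposited table gives read counts as whole numbers for each mature miRNA, unscaled by the authors as far as the values show. Per the labels' protocols, pooled total RNA was made into libraries by standard Illumina methods. The aligner, trimming, miRNA reference and genome build are not stated in the sources used here. Each of the 14 columns carries a tissue name, which assigned it to its sample.

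Counts were divided by the library total and multiplied by 1000000. Poisson, Clopper-Pearson and conditional binomial intervals are exact at 95% and cover counting error only. Ratios needed 10 reads of both names. With 1 library per tissue no test between tissues was possible, and rules of size took its place. The 4-fold rule was tried on simulated counts whose libraries shared the same composition apart from names raised in single libraries. Shifts in composition such as that of miR-143 were not covered, nor was the tissue-enriched rule. Named were the members, all rows with their leading letters, the marker lists, and the 5 names of highest rho per member. The members, lists and rules were chosen with earlier results of these data known. Alternatives were 3 other scalings, a pseudocount of 10 RPM, other filters, identical names counted once, Pearson's r for the likeness, and runs without libraries. Python 3.11.15, pandas 2.3.3, numpy 2.4.6 and scipy 1.17.1 were used.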

Additional observations from a re-analysis of the deposited data

How the results depend on the processing

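The values turned on the scaling, and log2 values are given for the library that was highest with totals. With totals, that library stood 3.62 above the median of the others for miR-199-3p, 2.55 for miR-199a-5p and 2.30 for miR-214, and 0.51, 0.03 and 1.40 above the highest other library. With median-of-ratios factors these were 1.24, 1.62 and 1.35 above the median and −1.58, −0.38 and −2.05 against the highest other library (miR-199a-3p −1.58, miR-199b −1.57), with tau 0.354 for miR-199a-5p and 0.517 for miR-214, and 1, 1 and 2 tissues called 4-fold high, against 3, 2 and 1 with totals. With totals without miR-143 they were 1.80, 2.69 and 1.30, and −1.74, −0.66 and −2.04 (miR-199a-3p −1.74, miR-199b −1.73), with tau 0.346, 0.390 and 0.509 and 4 tissues for miR-199a-5p. With totals without the 5 most abundant names they were 1.74, 2.03 and 1.51, and −1.56, −0.59 and −1.87 (miR-199a-3p −1.57, miR-199b −1.56), with tau 0.289, 0.310 and 0.428, 1 tissue for miR-199-3p and 2 for miR-214. The reversals put the library labelled colon first for miR-199-3p under all 3 scalings, stomach first for miR-199a-5p, and ovary (median-of-ratios) or the library labelled colon first for miR-214. With a pseudocount of 10 RPM the values were 3.55, 2.31 and 1.78 above the median and 1.16 above the second tissue for miR-214, with tau 0.310, 0.323 and 0.314 and 0 tissues for miR-214. Name and tissue pairs called numbered 562, against 939.

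Without the library labelled colon, miR-199-3p stood 3.05 and miR-199a-5p 2.43 above the median, with tau 0.321 and 0.386. The next runs were chosen after seeing the data. With totals without miR-143 and without that library, the values were 1.97, 2.95 and 1.66, and −0.47, −0.66 and −0.20 (miR-199a-3p −0.47, miR-199b −0.47), with tau 0.299, 0.418 and 0.407 and 0 tissues for miR-214, and lung came first for miR-199-3p. Without the libraries labelled colon, ovary, pancreas and cerebellum, they were 2.29, 2.27 and 1.94, with tau 0.250, 0.265 and 0.421, 1 tissue for miR-199-3p, 0 for miR-214 and 520 pairs. The ratios within a library do not depend on scaling. Depth limits cerebellum and pancreas, where the 4 names had 14 and 30 reads. No paired analysis was possible because each tissue has 1 library.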
